A study of Mus musculus with 58 samples.

Results

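Expression of 34 genes of the p53 pathway was examined in mouse microglia. The genes are Trp53, which encodes p53 itself, its regulators Mdm2, Mdm4 and Ppm1d, and genes that p53 is known to activate. They were taken by symbol, and all 34 matched 1 identifier each among the 47643 Ensembl genes of the count tables. The symbols, positions and Ensembl identifiers follow GENCODE M21 on GRCm38.

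The study asked how NF-κB signaling shapes the microglial response to tau, and 34 of its 58 samples, all microglia, are described here. The 24 cortex samples were not analysed here. Wild-type primary microglia were given 2 µg/ml full-length tau fibrils or vehicle for 24 h, with 4 libraries in each group. Adult microglia were taken with CD11b beads from male PS19 mice, which carry a mutant human tau transgene, and from nontransgenic (NTG) mice, both at about 11 months of age, with 4 libraries in each group. IkbkbCA primary microglia carried Cx3cr1 CreERT2/+ and a floxed-stop cassette in the Rosa locus for a constitutively active IKKβ, the kinase that turns NF-κB on. Their IkbkbWT littermates carried the cassette without Cre, with 5 libraries in each group. Ikbkb-/- primary microglia carried Cx3cr1 CreERT2/+ and floxed Ikbkb alleles, the gene of IKKβ, and their Ikbkb+/+ littermates carried the floxed alleles without Cre, with 4 libraries in each group. All 4 of these Ikbkb groups were grown from cortex and hippocampus of pups as mixed glia, received 4-hydroxytamoxifen there, and were shaken off. Cre under the control of the microglial gene Cx3cr1, with the loss of 1 Cx3cr1 allele that it brings, was thus present in every IkbkbCA and Ikbkb-/- library and in none of their controls. Within either comparison, Cre and the change in Ikbkb cannot be told apart. Nothing in the labels says that the libraries of a group came from separate cultures, so the p-values measure the spread between these libraries.

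p53 is a transcription factor that is held at a low level in unstressed cells by Mdm2, a ubiquitin ligase that is itself a p53 target. DNA damage and other stresses release p53 from this control, so that its activity is set mostly on the protein and not on its mRNA. It then binds pairs of a short half-site in its target genes, which stop the cell cycle, repair DNA, restrain growth or trigger apoptosis. In the brain, p53 activity in microglia and neurons has been studied in injury and neurodegeneration.

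The reads lie near the 3′ ends of transcripts (QuantSeq 3′ mRNA sequencing), and total counts were 1672052 to 8349128 per library. Levels are given as CPM (counts scaled to a common library size) after TMM scaling within a comparison, in the order of library number. The labels give no replicate numbers, so these follow the order of deposit and were not used to pair libraries. Fold changes come from the quasi-likelihood test of edgeR. A call required a Benjamini-Hochberg false discovery rate (FDR) under 0.05 over all genes tested. The ± after a log2 fold change is its standard error. Ikbkb was at 18.8 to 25.4 CPM in Ikbkb-/- and at 45.9 to 55.0 CPM in Ikbkb+/+ (log2 fold change -1.20 ± 0.12, FDR = 6.34e-07). It was at 45.0 to 59.8 CPM in IkbkbCA and at 41.2 to 58.6 CPM in IkbkbWT (log2 fold change 0.17 ± 0.12, FDR = 0.405), and counts near the 3′ end of the native gene need not report the cassette. Cx3cr1, a receptor gene that defines microglia, was at 965 CPM or more in every library and was lower in both Cre genotypes, by 0.56 ± 0.09 in log2 in IkbkbCA (FDR = 0.00153) and by 1.16 ± 0.12 in Ikbkb-/- (FDR = 1.63e-06). The Y-linked Ddx3y and the inactive-X RNA Xist differed between the Ikbkb groups. Ddx3y was at 156 to 178 CPM in Ikbkb-/- and at 34.9 to 70.9 CPM in Ikbkb+/+, and Xist was at 5.69 to 10.7 CPM against 248 to 399 CPM. In IkbkbWT, libraries 1 to 3 had 145 to 173 CPM of Ddx3y and libraries 4 and 5 had 1.16 and 2.08 CPM, while the 5 IkbkbCA libraries had 48.9 to 85.8 CPM. PS19 library 1 had 161 CPM of Xist, against 1.67 to 29.1 CPM in the other 7 adult libraries, although its label is male. Its Ddx3y, at 112 CPM, lay within the 92.3 to 206 CPM of the PS19 group. Between Ikbkb-/- and Ikbkb+/+, Xist and Ddx3y had separate ranges, so the sex of the cells and the genotype cannot be told apart there. All of these differences are carried along with the results that follow.

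RefSeq promoter windows on GRCm38.p6, from 250 bases before to 50 bases after the start of transcription, were found for 26 of the 34 genes. The p53 half-site was searched by its 10-base consensus, which reads the same on both strands, and 13 of the 26 genes had at least 1 exact match in a window. These 26 genes had 35 windows, and of all 32851 windows 8.36% held one, so the share per gene and the share per window are not on the same base. A full site, defined as 2 half-sites side by side with at most 2 mismatches and the core C and G of each kept, was present for 3 of the 26 genes and in 0.326% of all windows. These 3 were Cdkn1a, Ccng1 and Ckap2. A match describes the letters and not binding, and p53 sites outside the windows were not searched. The windows of 4 genes that rose in both Ikbkb comparisons are shown because the gene set was built around this transcription factor, with every matched half-site or full site in capitals.

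Cdkn1a, chr17:29090729-29091028, plus strand: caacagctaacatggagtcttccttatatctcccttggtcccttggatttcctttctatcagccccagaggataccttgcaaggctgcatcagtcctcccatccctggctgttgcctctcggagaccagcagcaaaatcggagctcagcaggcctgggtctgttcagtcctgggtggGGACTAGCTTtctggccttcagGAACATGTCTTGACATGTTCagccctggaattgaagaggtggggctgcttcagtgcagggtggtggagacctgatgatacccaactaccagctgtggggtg
Ccng1, chr11:40755237-40755536, minus strand: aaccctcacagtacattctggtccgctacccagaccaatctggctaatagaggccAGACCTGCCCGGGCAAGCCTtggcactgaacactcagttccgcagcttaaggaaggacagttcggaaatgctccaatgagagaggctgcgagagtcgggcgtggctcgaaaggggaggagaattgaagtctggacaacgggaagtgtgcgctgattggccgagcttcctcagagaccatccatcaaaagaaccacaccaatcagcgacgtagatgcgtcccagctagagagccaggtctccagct
Mdm2, chr10:117710709-117711008, minus strand: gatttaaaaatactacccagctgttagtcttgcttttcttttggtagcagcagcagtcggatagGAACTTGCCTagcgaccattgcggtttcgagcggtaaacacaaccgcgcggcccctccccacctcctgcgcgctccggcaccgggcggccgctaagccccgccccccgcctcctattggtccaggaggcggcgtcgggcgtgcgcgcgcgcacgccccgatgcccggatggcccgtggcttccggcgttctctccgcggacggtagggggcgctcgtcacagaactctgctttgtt
Bax, chr7:45466849-45467148, minus strand: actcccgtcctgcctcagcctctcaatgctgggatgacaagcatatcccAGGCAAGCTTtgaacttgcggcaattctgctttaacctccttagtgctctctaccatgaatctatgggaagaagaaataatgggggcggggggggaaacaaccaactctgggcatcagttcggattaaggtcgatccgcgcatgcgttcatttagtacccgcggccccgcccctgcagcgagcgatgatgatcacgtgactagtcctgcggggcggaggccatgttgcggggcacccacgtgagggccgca

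In the window shown for Cdkn1a, the full site began 51 bases before its start with 1 mismatch. A further half-site began 73 bases before that start. Cdkn1a had 2 windows, and the other, chr17:29093519-29093818, held no match. The full site of Ccng1 began 195 bases before the start, also with 1 mismatch. Mdm2 and Bax each held a single half-site, which began 186 and 201 bases before their starts. The full site of Ckap2, with 2 mismatches, read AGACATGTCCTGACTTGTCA on the minus strand of chr8:22185770-22186069. Phlda3 and Psrc1, which are among the genes described next, had windows with no match. Trp53inp1, Zmat3, Pmaip1, Perp, Rrm2b, Tnfrsf10b, Ddb2 and Xpc had no window in the table.

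Trp53 mRNA did not pass the test in any comparison. In log2, its change was -0.02 ± 0.29 with tau fibrils (FDR = 0.967), -0.57 ± 0.27 in PS19 (FDR = 0.593), 0.31 ± 0.18 in IkbkbCA (FDR = 0.328) and 0.05 ± 0.20 in Ikbkb-/- (FDR = 0.906). In IkbkbCA, Trp53 was at 16.8, 20.3, 29.1, 15.5 and 15.5 CPM, against 13.8, 14.2, 18.9, 16.2 and 15.6 CPM in IkbkbWT. The groups overlapped, and the highest value came from IkbkbCA library 3. The Ikbkb-/- libraries had 18.6, 10.8, 13.1 and 13.6 CPM and the Ikbkb+/+ libraries had 9.32, 17.5, 12.2 and 12.3 CPM. Under tau fibrils the values were 11.4, 16.2, 9.93 and 17.6 CPM, and with vehicle 22.2, 11.4, 12.3 and 11.5 CPM. In adult microglia, Trp53 was at 12.7, 16.5, 20.1 and 18.4 CPM in PS19 and at 20.6, 16.6, 28.3 and 35.0 CPM in NTG. In each of the 4 comparisons the groups overlapped.

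**Figure D1:**
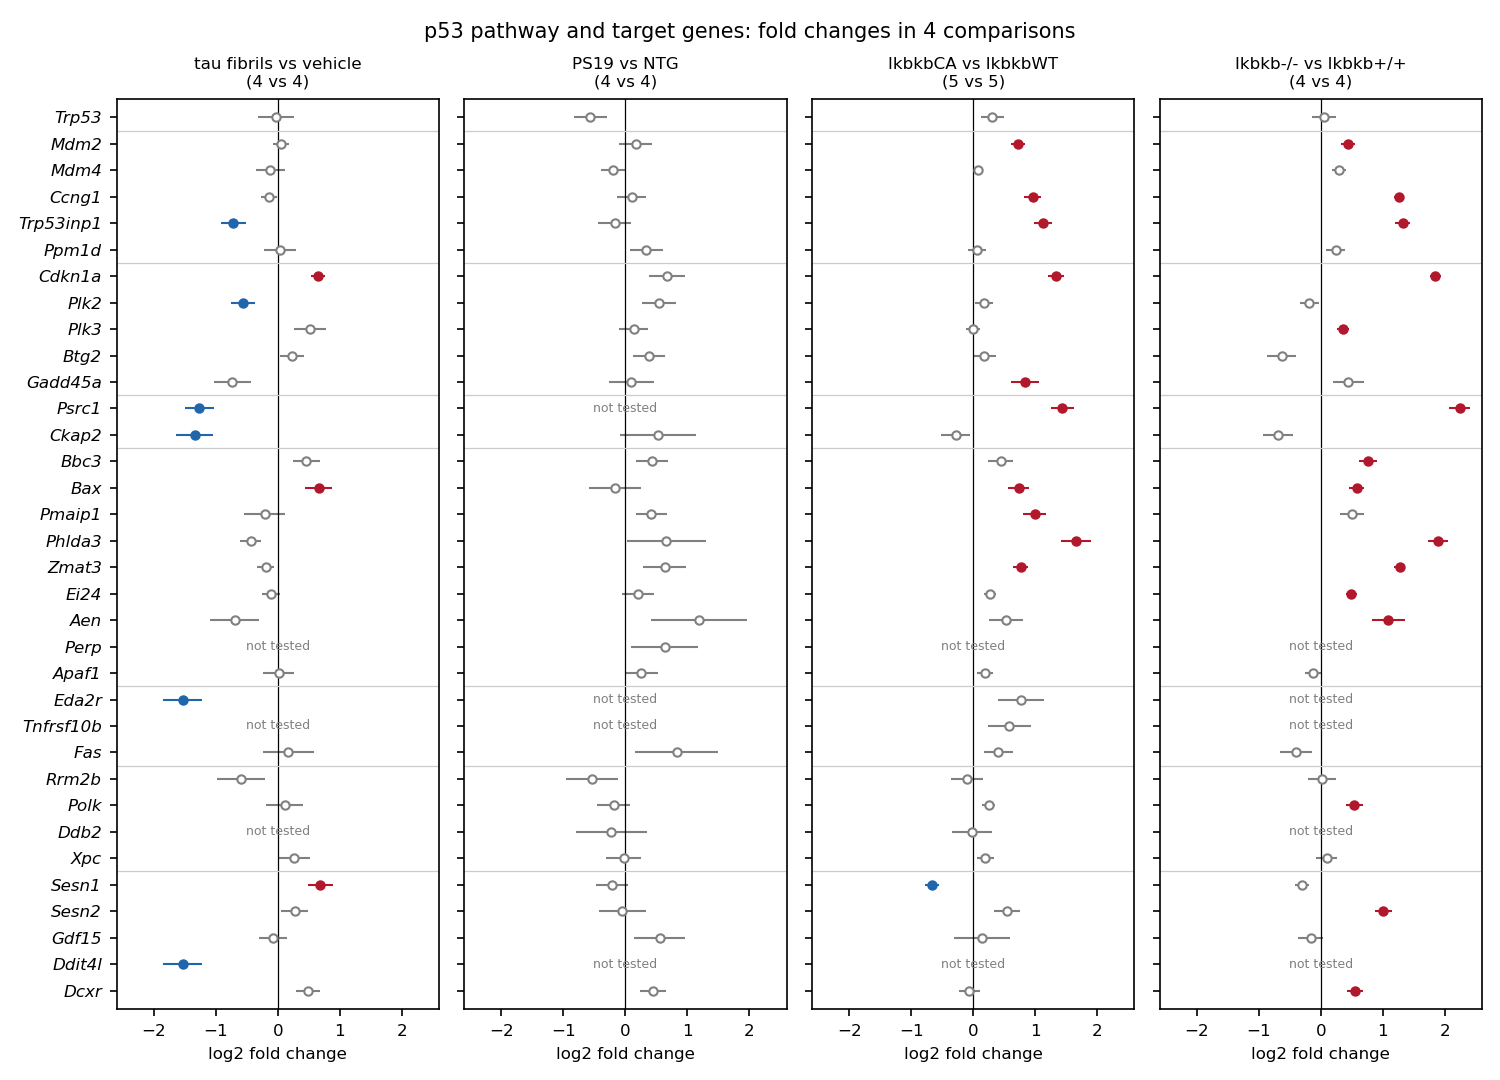
Log2 fold changes (x axis) of the 34 genes (y axis, ordered by role) in the 4 comparisons, with bars of 1 standard error. Filled red points are genes called higher, filled blue points genes called lower, and open grey points genes not called. Red points lie mostly in the panels of IkbkbCA (10) and Ikbkb-/- (15), and blue points mostly in that of the tau fibrils (6).

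The calls among the p53 genes were mostly higher in IkbkbCA and in Ikbkb-/- microglia, and many genes of the set were not called. In IkbkbCA, 32 of the 34 genes passed the filter on low counts, and 10 of them rose: Cdkn1a, Phlda3, Psrc1, Trp53inp1, Pmaip1, Ccng1, Gadd45a, Zmat3, Bax and Mdm2. That was 31.2% of the genes tested, where 7.31% of all 11697 genes tested were called higher. Only Sesn1 fell, or 3.12%, where 7.16% of all genes were called lower. In Ikbkb-/-, 29 genes were tested and 15 rose, or 51.7%, where 7.64% of all 11242 genes were called higher. These were Psrc1, Phlda3, Cdkn1a, Trp53inp1, Zmat3, Ccng1, Aen, Sesn2, Bbc3, Bax, Dcxr, Polk, Ei24, Mdm2 and Plk3. None of the 29 was called lower, where 6.96% of all genes were. An unadjusted p under 0.05 in either direction was found for 20 of the 29, beside 3015 of all 11242 genes. The median log2 fold change of the genes tested was 0.36 in IkbkbCA and 0.45 in Ikbkb-/-, beside -0.05 and 0.00 for all genes. Every IkbkbCA library lay above every IkbkbWT library for 9 of the 32 genes, beside 6.38% of all genes, and the same held in Ikbkb-/- for 14 of the 29 genes, beside 9.44% of all genes.

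The 2 comparisons share no library. Of the 29 genes tested in both, 8 were called higher in both, which is 80.0% of the 10 in IkbkbCA and 53.3% of the 15 in Ikbkb-/-. Among all 11137 genes tested in both, 332 were called higher in both, or 38.8% and 38.6% of each comparison's higher genes. The 8 genes were Cdkn1a, Ccng1, Mdm2, Trp53inp1, Phlda3, Zmat3, Bax and Psrc1.

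Cdkn1a encodes the cyclin-dependent kinase inhibitor p21, which stops the cell cycle. In IkbkbCA it was at 624, 743, 704, 674 and 651 CPM, against 245, 268, 365, 256 and 216 CPM in IkbkbWT. In Ikbkb-/- it was at 639, 601, 686 and 761 CPM, against 170.0, 203, 182 and 193 CPM in Ikbkb+/+. Neither pair of groups overlapped. The rise was 2.52-fold in IkbkbCA (log2 fold change 1.33 ± 0.13, FDR = 4.19e-05) and 3.59-fold in Ikbkb-/- (1.84 ± 0.09, FDR = 4.93e-11). An annotated transcript on the opposite strand, AC167363.2, overlaps exons of Cdkn1a, and the strand setting of the counting was not given in the sources used here. For a single gene, the smallest p that an exact two-sided permutation test allows is 0.00794 with 5 against 5 libraries and 0.0286 with 4 against 4, and Cdkn1a reached it in both. That test treats the libraries as independent, and those of IkbkbCA and IkbkbWT fell into correlated sets, described below.

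Of 5 inhibitors and feedback genes of p53, 3 rose in each Ikbkb comparison. Ccng1 encodes cyclin G1, which takes part in the feedback on p53 through Mdm2. It was at 233, 214, 145, 205 and 187 CPM in IkbkbCA and at 116, 111, 105, 94.2 and 81.4 CPM in IkbkbWT, a rise of 1.94-fold (log2 fold change 0.96 ± 0.13, FDR = 0.000553). In Ikbkb-/- it was at 235, 244, 249 and 243 CPM, against 94.3, 92.4, 114 and 103 CPM in Ikbkb+/+ (2.39-fold, 1.26 ± 0.08, FDR = 4.09e-09). The groups were separate in both comparisons, and IkbkbCA library 3 came closest to its controls.

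Mdm2 encodes the ubiquitin ligase that marks p53 for degradation. Its values were 405, 413, 514, 459.8 and 483 CPM in IkbkbCA and 244, 259, 257, 261 and 359.5 CPM in IkbkbWT, and the groups were separate (1.65-fold, log2 fold change 0.72 ± 0.12, FDR = 0.00149). In Ikbkb-/- it was at 333, 310.0, 295 and 375 CPM, against 221, 201, 242 and 299.5 CPM in Ikbkb+/+. These groups overlapped, since library 4 of Ikbkb+/+ lay above library 3 of Ikbkb-/-, and the rise was smaller (1.36-fold, 0.44 ± 0.11, FDR = 0.0108). Without Ikbkb-/- library 4, Mdm2 was not called (log2 fold change 0.36, FDR = 0.0524).

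Trp53inp1 encodes a stress protein that promotes p53 activity and autophagy. It was at 52.0, 51.2, 39.5, 45.3 and 54.6 CPM in IkbkbCA and at 21, 16.9, 29.2, 22.3 and 21.7 CPM in IkbkbWT (2.18-fold, log2 fold change 1.12 ± 0.14, FDR = 0.000258). In Ikbkb-/- it was at 43.5, 62.8, 57.2 and 64.0 CPM, against 19.8, 23, 24.3 and 24.5 CPM in Ikbkb+/+ (2.5-fold, 1.32 ± 0.12, FDR = 3.38e-07). Both pairs of groups were separate. The negative regulators Mdm4 and Ppm1d did not pass the test. Mdm4, a partner of Mdm2 that blocks p53, had log2 fold changes of 0.09 and 0.30 in IkbkbCA and Ikbkb-/-, and Ppm1d, a phosphatase that acts on p53, had 0.07 and 0.24.

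Among the genes of apoptosis and survival, Phlda3 changed most. It encodes an inhibitor of Akt, the survival kinase. In IkbkbCA it was at 235, 272, 203, 233 and 226 CPM and in IkbkbWT at 61.6, 63.4, 138, 54.3 and 54.3 CPM, so that all 5 lay above the controls although IkbkbWT library 3 stood well above the other 4 (3.15-fold, log2 fold change 1.66 ± 0.24, FDR = 0.000719). Without IkbkbWT library 3, which also had 1972 CPM of the myelin gene Mbp against 112 to 261 CPM in the other 4 control libraries, the log2 fold change was 2.00. Mbp was raised in IkbkbCA library 3 too, at 717 CPM against 130 to 250 CPM in the other 4 IkbkbCA libraries. The Ikbkb-/- libraries had 168, 165, 226 and 242 CPM of Phlda3 and the Ikbkb+/+ libraries 32.1, 51.2, 58.9 and 69.3 CPM (3.70-fold, 1.89 ± 0.17, FDR = 2e-07).

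Zmat3, which encodes an RNA-binding zinc finger protein, was at 141, 114, 89.2, 123 and 107 CPM in IkbkbCA and at 72.8, 73.0, 73.1, 57.1 and 61.6 CPM in IkbkbWT (1.70-fold, log2 fold change 0.77 ± 0.12, FDR = 0.00145). The values in Ikbkb-/- were 136, 156, 151 and 143 CPM, against 54.4, 56.6, 65.3 and 64.7 CPM in Ikbkb+/+ (2.42-fold, 1.27 ± 0.09, FDR = 7.69e-09). The groups did not overlap in either comparison.

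Bax encodes a protein that opens the outer membrane of mitochondria during apoptosis. It was at 151, 119.9, 100, 120.4 and 73.6 CPM in IkbkbCA and at 78.0, 76.0, 67.3, 68.0 and 51.5 CPM in IkbkbWT, with IkbkbCA library 5 inside the range of the controls (1.66-fold, log2 fold change 0.73 ± 0.17, FDR = 0.015). In Ikbkb-/- it was at 131, 108, 166 and 118 CPM, against 93.6, 74.5, 79.5 and 102 CPM in Ikbkb+/+, and these groups were separate (1.49-fold, 0.58 ± 0.13, FDR = 0.00419). This call was lost in 1 fit of all 18 libraries (log2 fold change 0.58, FDR = 0.0692). The annotated gene Gm45808 overlaps exons of Bax on the same strand.

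Psrc1 encodes a microtubule protein of the mitotic spindle and is a p53 target. Its values were 20.7, 22.1, 13.1, 22.4 and 21 CPM in IkbkbCA and 5.69, 6.51, 9.23, 7.12 and 7.96 CPM in IkbkbWT (2.71-fold, log2 fold change 1.44 ± 0.18, FDR = 0.000309). In Ikbkb-/- they were 32.2, 25.9, 31.2 and 33.4 CPM, against 4.85, 5.26, 7.44 and 7.27 CPM in Ikbkb+/+. The rise in Ikbkb-/- was 4.72-fold (2.24 ± 0.17, FDR = 1.86e-08), with separate groups in both comparisons. Ckap2, the other spindle gene of the set, had negative log2 fold changes that did not pass the test, -0.28 ± 0.23 in IkbkbCA and -0.69 ± 0.24 in Ikbkb-/- (FDR = 0.0642).

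**Figure D2:**
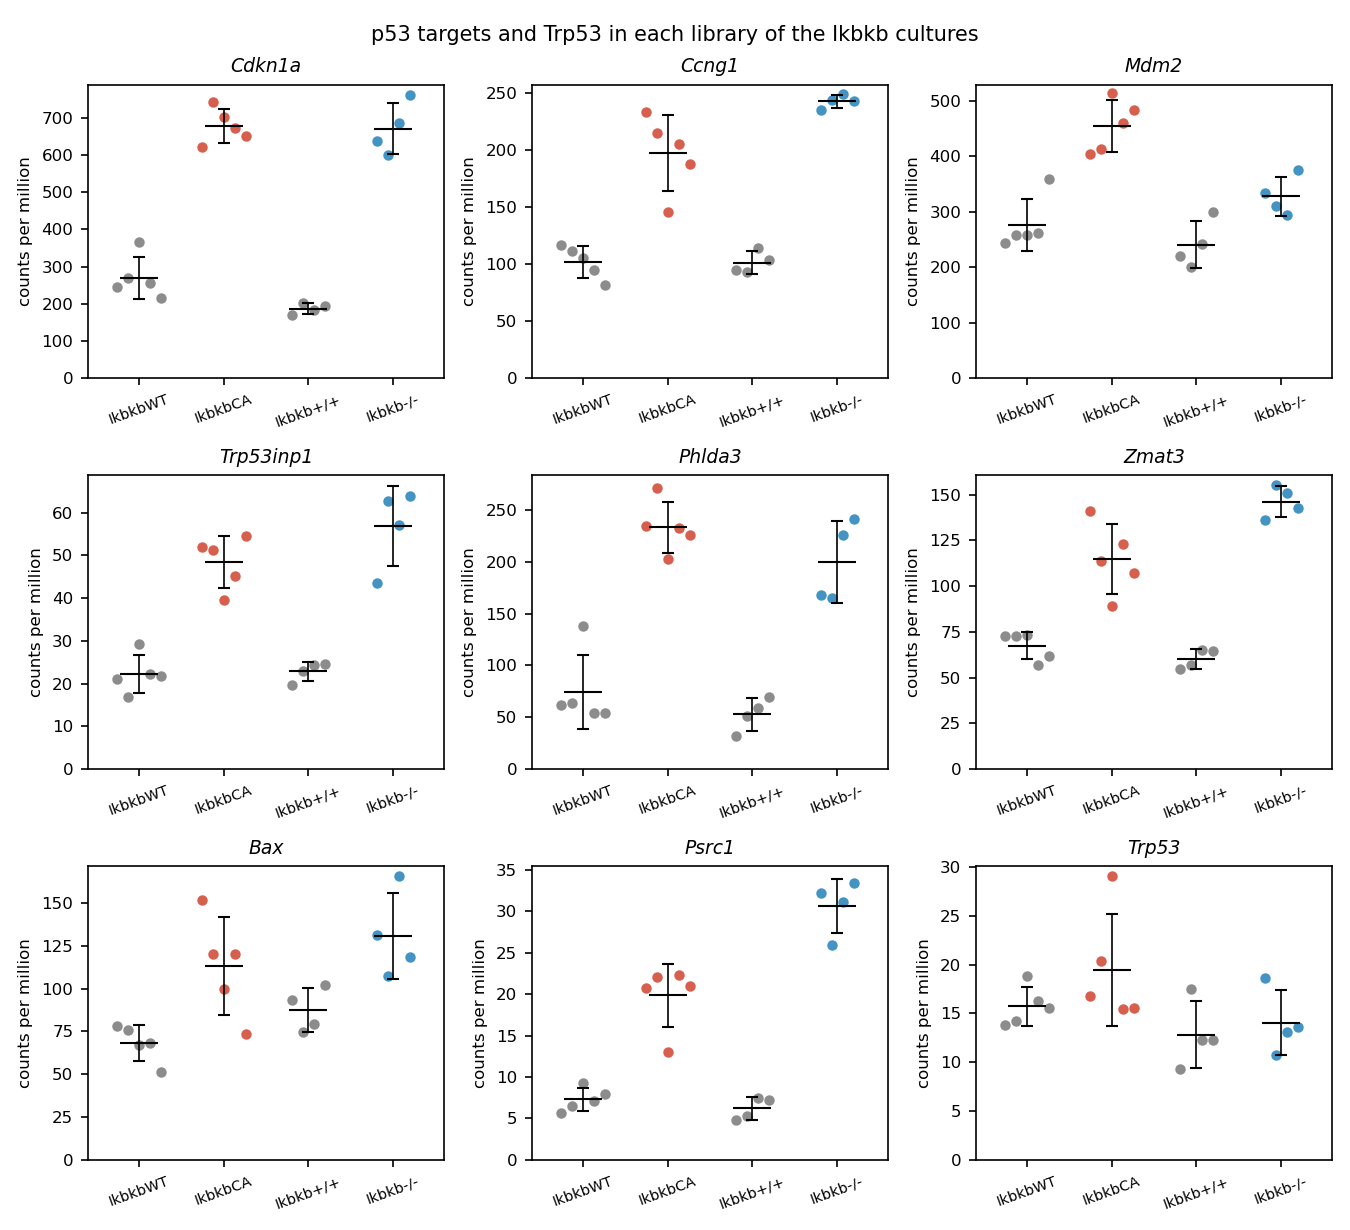
TMM-scaled CPM (y axis, from 0) of the 8 genes called higher in both Ikbkb comparisons and of Trp53, in each library of the 4 groups (x axis), ordered by library number from left to right. Points are libraries, horizontal lines are means and bars are SDs (n = 5, 5, 4 and 4). The 8 target genes are higher with Cre in both experiments, while the Trp53 points of all groups lie between 9.32 and 29.1.

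Other genes were called in 1 of the 2 comparisons. Aen, an apoptosis-enhancing nuclease, was at 8.47, 6.11, 5.16 and 5.53 CPM in Ikbkb-/- and at 3.73, 2.53, 2.65 and 2.78 CPM in Ikbkb+/+, with no overlap (2.13-fold, log2 fold change 1.09 ± 0.26, FDR = 0.00852). Sesn2, which encodes a stress protein that restrains mTORC1, was at 24.3, 27.4, 26.7 and 24.2 CPM, against 15.3, 12.8, 11.2 and 12.7 CPM (2.01-fold, 1.01 ± 0.14, FDR = 4.79e-05). In IkbkbCA the log2 fold changes of these genes were 0.53 (FDR = 0.238) and 0.54 (FDR = 0.121). Bbc3, which encodes the apoptotic protein Puma, rose by 0.76 ± 0.14 in Ikbkb-/- (FDR = 0.000938) and had 0.44 ± 0.20 in IkbkbCA (FDR = 0.179).

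Smaller rises in Ikbkb-/- were found for Dcxr, a carbonyl reductase (log2 fold change 0.55, FDR = 0.00501), and Polk, a DNA polymerase that copies past lesions (0.54, FDR = 0.0136). Ei24, a membrane protein of the endoplasmic reticulum (0.49, FDR = 0.00126), and Plk3, a kinase of the stress response (0.36, FDR = 0.0171), also rose there. The call of Polk was lost without library 4 of either group, and that of Plk3 without Ikbkb+/+ library 3 or Ikbkb-/- library 4. For Dcxr, Polk, Ei24 and Plk3 the values in IkbkbCA were -0.06, 0.25, 0.27 and -0.01, and none passed the test. Called in IkbkbCA alone were Pmaip1, the gene of the apoptotic protein Noxa (0.99 ± 0.19, FDR = 0.00416, against 0.50 ± 0.19 and FDR = 0.0903 in Ikbkb-/-), and Gadd45a, a growth arrest gene (0.84 ± 0.23, FDR = 0.0308, against 0.45 ± 0.25 and FDR = 0.272). Gadd45a was at 21.4, 18.4, 41.6, 23.8 and 22.8 CPM in IkbkbCA and at 12.2, 11.6, 13.3, 13.9 and 20.2 CPM in IkbkbWT, so the groups overlapped, and its call was lost when any 1 of IkbkbWT libraries 1 to 4 or IkbkbCA library 4 was left out (FDR = 0.0532 to 0.079).

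Sesn1, a relative of Sesn2, was the only gene of the set that fell in IkbkbCA, from 55.9, 63.2, 75.2, 65.0 and 59.3 CPM in IkbkbWT to 43.3, 38.0, 32.5, 48.2 and 38.8 CPM in IkbkbCA (log2 fold change -0.66 ± 0.12, FDR = 0.00256). In Ikbkb-/- its log2 fold change was -0.30 ± 0.11 (FDR = 0.0889). Genes tested and not called in either comparison, besides those already named, were Gdf15, a stress cytokine, Apaf1, the scaffold of the apoptosome, Fas, a death receptor, Plk2, a stress kinase, Btg2, an antiproliferative gene, and the repair genes Rrm2b and Xpc. Their log2 fold changes lay between -0.10 and 0.41 in IkbkbCA and between -0.63 and 0.09 in Ikbkb-/-. Eda2r and Tnfrsf10b, both death receptors, and the repair gene Ddb2 were tested in IkbkbCA only and not called there, with log2 fold changes of 0.77, 0.59 and -0.02. In the Ikbkb-/- comparison these 3 genes had 3 to 20 counts per library and did not pass the filter. Perp and Ddit4l passed it in neither comparison, with 0 to 19 and 0 to 30 counts per library.

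The size of the change was compared between the genotypes in a fit of all 18 libraries, as the effect of IkbkbCA minus the effect of Ikbkb-/-, in which a contribution of Cre that is the same in both would drop out. None of the 32 genes tested was called in either direction, where 2.23% of all 12352 genes had a larger effect in IkbkbCA and 0.899% a smaller one. An unadjusted p under 0.05 was found for 7 of the 32, beside 1889 of all 12352 genes. Under DESeq2 and limma-voom the count was also 0. The difference was -0.81 ± 0.25 for Psrc1 (FDR = 0.0978), -0.50 ± 0.17 for Cdkn1a (FDR = 0.134), -0.49 ± 0.16 for Zmat3 (FDR = 0.125), -0.23 ± 0.34 for Phlda3 and 0.29 ± 0.18 for Mdm2. A difference that misses the threshold does not show that the genotypes act alike. Ikbkb itself differed in the same fit by 1.38 ± 0.17 (FDR = 7.99e-05). Differences in the sex of the cells need not drop out of this fit. There Xist had a difference of 5.46 ± 1.60 (FDR = 0.0739) and Ddx3y of -2.31 ± 1.07 (FDR = 0.311).

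**Figure D3:**
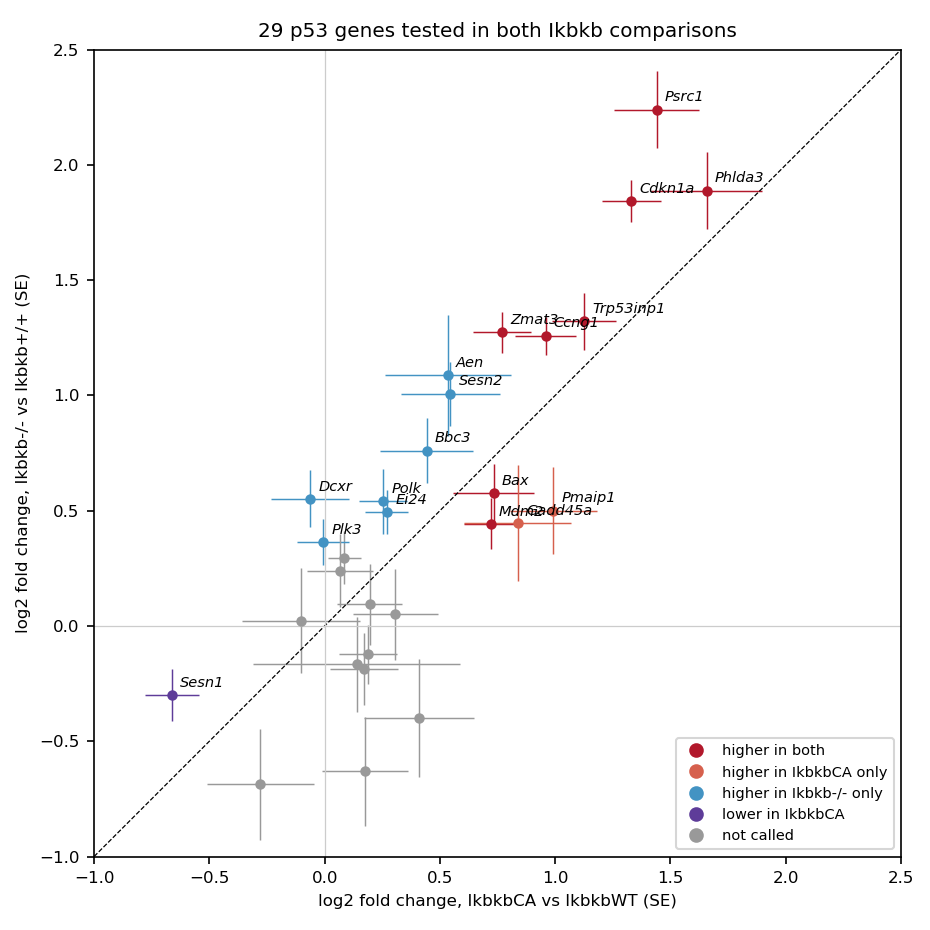
Log2 fold changes of the 29 p53 genes tested in both Ikbkb comparisons, with IkbkbCA against IkbkbWT on the x axis and Ikbkb-/- against Ikbkb+/+ on the y axis. Bars are standard errors, colors give the calls, and the dashed line marks equal values. Of the 8 genes called higher in both, 6 lie above the line, and 19 of the 29 genes are positive in both.

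Genes outside the set gave the surroundings of these changes. Of 31 regulators of p53, 29 were tested in IkbkbCA and 28 in Ikbkb-/-, and 2 rose in each. These were 6.9% and 7.14% of those tested, near the 7.31% and 7.64% of all genes. Both were the same genes. Pml, the scaffold of nuclear bodies, went from 8.41 ± 2.49 to 16.8 ± 4.15 CPM in IkbkbCA (mean ± SD, n = 5, log2 fold change 1.00, FDR = 0.0148) and from 7.64 ± 2.22 to 26.7 ± 2.39 CPM in Ikbkb-/- (n = 4, 1.81, FDR = 6.25e-07). Daxx, a partner of Pml, rose by 0.83 in log2 in IkbkbCA (FDR = 0.00635) and by 1.30 in Ikbkb-/- (FDR = 5.63e-08). The regulators that fell were 2 in IkbkbCA, among them the kinase gene Hipk2 (-0.58, FDR = 0.0028), and 1 in Ikbkb-/-, the checkpoint kinase gene Chek1 (-1.01, FDR = 0.0218). The median over the regulators tested was -0.07 and -0.06. Ppp1r13b, which encodes the p53-binding protein ASPP1, was the only regulator whose effect differed between the genotypes (difference -0.72 ± 0.19, FDR = 0.0415).

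Of 48 further p53 targets, 43 were tested in each Ikbkb comparison. In IkbkbCA 6 rose and 2 fell, and in Ikbkb-/- 11 rose and 1 fell, or 14% and 25.6% higher, beside 7.31% and 7.64% of all genes, with medians of 0.04 and 0.12. Slc19a2, a thiamine transporter, rose in both, from 5.67 ± 0.73 to 12.2 ± 2.14 CPM in IkbkbCA (log2 fold change 1.09, FDR = 0.00121) and from 5.10 ± 3.07 to 14.5 ± 2.65 CPM in Ikbkb-/- (1.31, FDR = 0.00401). Trp53cor1, the noncoding RNA that lies upstream of Cdkn1a, rose in Ikbkb-/- (1.74, FDR = 0.00319) at 4.90 ± 1.30 against 1.61 ± 0.80 CPM, and Ephx1, an epoxide hydrolase, rose there by 1.24 (FDR = 8.02e-05). Pltp, a lipid transfer protein, fell in IkbkbCA by 0.88 (FDR = 0.000107).

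Genes of the cell cycle fell in both Ikbkb comparisons, and their link to Cdkn1a was not tested. Of 40 genes tested, 11 fell and 0 rose in IkbkbCA (median log2 fold change -0.43), or 27.5% lower beside 7.16% of all genes. In Ikbkb-/-, 35 fell and 0 rose (median -1.0), or 87.5% lower beside 6.96% of all genes. The summed level of the 40 genes was 771 to 1233 CPM in IkbkbCA against 1272 to 1556 CPM in IkbkbWT. It was 750 to 976 CPM in Ikbkb-/- against 1487 to 1831 CPM in Ikbkb+/+. IkbkbCA library 3 was the highest of its group in this sum. Among the genes called higher in IkbkbCA, it was the lowest of its group for Psrc1, Ccng1, Zmat3, Phlda3, Trp53inp1 and Pmaip1. It was the highest for Mdm2 and Gadd45a. For Cdkn1a (704 CPM) and Bax (100 CPM) it lay inside the range of its group. Mki67, the marker of cycling cells, fell from 50.7 ± 5.32 to 21.8 ± 3.57 CPM in IkbkbCA (-1.21, FDR = 4.99e-05) and from 58.7 ± 4.63 to 19.6 ± 1.85 CPM in Ikbkb-/- (-1.56, FDR = 7.45e-09). Cenpa, a centromeric histone, fell by 1.69 in log2 in IkbkbCA (FDR = 1.55e-05), and Hmmr, a gene of the mitotic spindle, fell there by 0.78 (FDR = 0.015). In Ikbkb-/-, the replication genes Cdc6 and Ccne2 fell by 2.09 (FDR = 0.00111) and 1.82 (FDR = 1.57e-05). In these bulk samples, fewer cells of a kind and less RNA per cell cannot be told apart. Ccna2 and Rrm1 were the cell cycle genes whose effects differed between the genotypes, by 0.90 ± 0.24 (FDR = 0.0415) and 0.97 ± 0.25 (FDR = 0.0418).

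Several facts about the libraries moved with the p53 targets in these cultures. For the marker counts that follow, 7.31% of all genes were called higher and 7.16% lower in IkbkbCA, and 7.64% and 6.96% in Ikbkb-/-. Of the border macrophage markers, 4 of 6 tested fell in IkbkbCA and 5 of 6 in Ikbkb-/-, with 1 higher in each. Their summed level was 1379 to 1953 CPM in IkbkbCA against 1824 to 2404 CPM in IkbkbWT, and 967 to 1407 CPM in Ikbkb-/- against 1981 to 2271 CPM in Ikbkb+/+. Of the oligodendrocyte markers, 6 of 9 were higher in Ikbkb-/- (786 to 882 against 461 to 590 CPM in sum) and 0 of 9 were called in IkbkbCA (735 to 1994 against 467 to 5386 CPM). Of 12 microglial markers, 4 rose and 2 fell in IkbkbCA and 2 rose and 3 fell in Ikbkb-/-. Neuronal, astrocyte, fibroblast and granulocyte markers had 1 call in IkbkbCA, a granulocyte marker that rose, and 6 calls in Ikbkb-/-. The part of these cells in the rise of the p53 targets was not tested. With the level of Ddx3y as a covariate in the fit of 18 libraries, chosen after seeing the data, 7 genes of the set rose in Ikbkb-/-, where the fit of 18 libraries without it gave 12 and the fit of 8 libraries 15. The 7 were Cdkn1a, Mdm2, Ccng1, Trp53inp1, Phlda3, Zmat3 and Psrc1. In IkbkbCA 12 rose in the fit of 18 libraries both with and without the covariate. The shares of all genes called in the fits of 18 libraries were not computed, so these counts cannot be read against all genes. The IkbkbCA and IkbkbWT libraries also fell into 3 sets, libraries 1 and 2, library 3, and libraries 4 and 5 of both groups. Their deviations from the group means correlated within sets (r = 0.317 to 0.607 over genes, which are not independent) and not between them (-0.68 to 0.107). These sets were chosen after the same data were seen, and centring on group means lowers correlations within a group, so the values describe the sets and do not test them. Among libraries 1 and 2 alone 16 of the p53 genes rose, among libraries 4 and 5 alone 10 rose, and with the set of libraries as a covariate 13 rose. The p-values of these fits rest on the spread within a set of libraries, and the shares of all genes called in them were not computed. The log2 fold change of Cdkn1a was 1.42 in libraries 1 and 2 and 1.53 in libraries 4 and 5, that of Ccng1 was 0.99 and 1.21, and that of Phlda3 was 2.03 and 2.13.

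With tau fibrils the set split. Of 31 genes tested, 3 rose, or 9.68%, where 14.5% of all 10408 genes were called higher, and 6 fell, or 19.4%, where 15.4% of all genes were called lower. These shares were near those of all genes, and the median log2 fold change was -0.08, beside -0.01 for all genes. The 3 that rose were Cdkn1a, Bax and Sesn1, and the 6 that fell were Ddit4l, Eda2r, Ckap2, Psrc1, Trp53inp1 and Plk2. With total-count scaling, which moved the median of all genes to -0.16, 2 rose and 8 fell.

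Cdkn1a was at 648, 692, 615 and 625 CPM with tau fibrils and at 409.9, 427, 416 and 393 CPM with vehicle, with no overlap (1.57-fold, log2 fold change 0.65 ± 0.12, FDR = 0.000118). Sesn1 was at 36.0, 41.0, 61.1 and 52.3 CPM against 26.2, 32.1, 25.1 and 34.9 CPM, also without overlap (1.61-fold, 0.69 ± 0.20, FDR = 0.00893), and it was not called without tau library 3 (log2 fold change 0.55, FDR = 0.0645). Bax had 39.6, 40.6, 64.7 and 67.3 CPM against 31.5, 47.4, 25.5 and 26.7 CPM. Its groups overlapped (1.58-fold, 0.66 ± 0.22, FDR = 0.0222), and the call was lost without tau library 3 or 4, without vehicle library 3 or 4, and with total-count scaling (FDR = 0.0563 to 0.0972). Without tau library 3, 1 gene of the set was called higher in place of 3.

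The genes that fell most with tau fibrils were expressed at modest levels. Psrc1 was at 11.4, 10.8, 11.9 and 13.9 CPM, against 23.9, 33.1, 33.1 and 24.0 CPM with vehicle (log2 fold change -1.27 ± 0.23, FDR = 0.000124). Ckap2 was at 7.81, 10.8, 10.3 and 11.2 CPM against 17.5, 30.7, 13.2 and 40.4 CPM (-1.34 ± 0.30, FDR = 0.00108). Both are spindle genes, and neither had overlapping groups.

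Eda2r, an X-linked death receptor of the TNF receptor family, was at 13.8, 4.96, 7.15 and 4.81 CPM with tau fibrils and at 15.2, 24.8, 17.5 and 28.9 CPM with vehicle (-1.53 ± 0.32, FDR = 0.000501). Ddit4l, an inhibitor of mTORC1, was at 7.81, 10.8, 3.18 and 6.41 CPM against 21, 18.7, 27.4 and 14.2 CPM (-1.54 ± 0.32, FDR = 0.000559). The groups did not overlap for either gene. Trp53inp1 fell by 0.72 ± 0.20 (FDR = 0.00694), from 42.3 ± 8.68 to 25.4 ± 2.72 CPM (mean ± SD, n = 4), also with separate groups, while Plk2 fell by 0.56 ± 0.19 with overlapping groups (FDR = 0.0261) and was not called without tau library 2 or 3 or vehicle library 2.

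**Figure D4:**
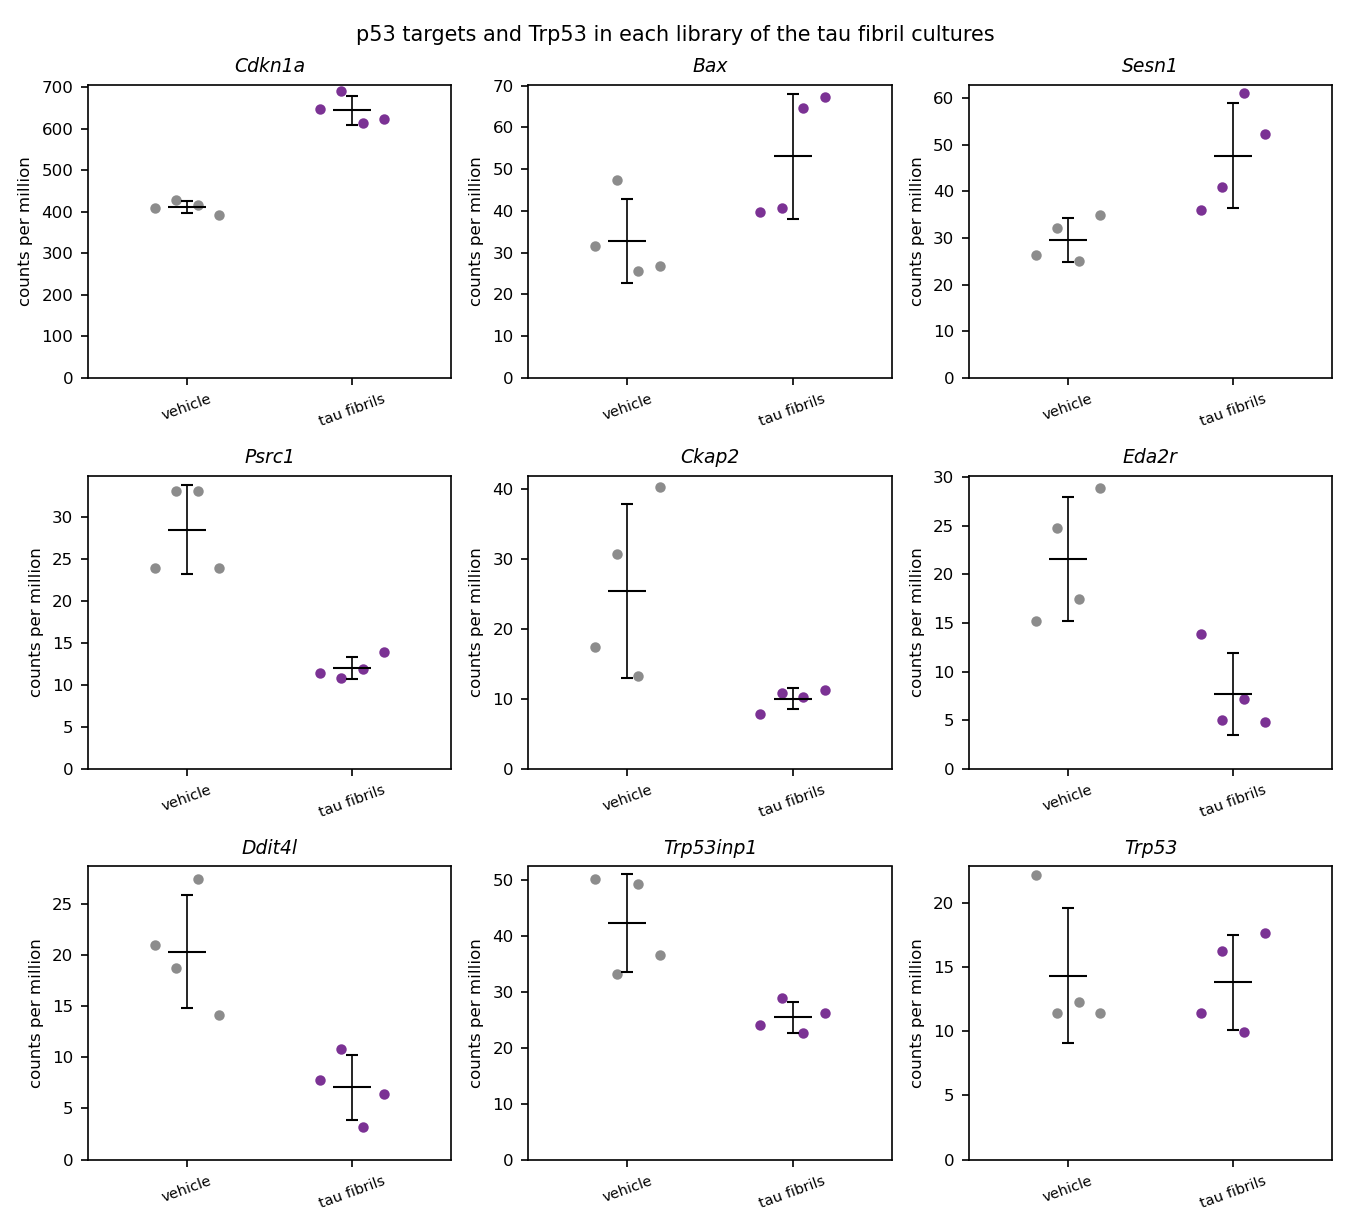
TMM-scaled CPM (y axis, from 0) of 8 genes called with tau fibrils and of Trp53, in each library given vehicle or tau fibrils (x axis), ordered by library number. Points are libraries, horizontal lines are means and bars are SDs (n = 4). Cdkn1a lies between 615 and 692 with tau fibrils and between 393 and 427 with vehicle, and Psrc1 lies between 10.8 and 13.9 against 23.9 and 33.1.

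Other targets that rose in both Ikbkb comparisons were not called with tau fibrils. Mdm2 had 0.05 ± 0.13 in log2, Ccng1 -0.14 ± 0.13, Zmat3 -0.19 ± 0.14 and Phlda3 -0.44 ± 0.17 (FDR = 0.0531). The 22 genes tested and not called lay between -0.73 and 0.52. Tnfrsf10b, Perp and Ddb2 did not pass the filter, with 1 to 25 counts per library.

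Markers of several cell types changed as well, in both directions. With tau fibrils 6 of 7 neuronal markers tested were lower (193 to 259 CPM in sum against 373 to 467 CPM with vehicle). Among all genes, 14.5% were called higher and 15.4% lower. Of the astrocyte markers, 5 of 8 were lower (427 to 498 against 807 to 866 CPM), and of the oligodendrocyte markers 4 of 7 were lower and 1 higher (384 to 444 against 623 to 737 CPM). Of the fibroblast markers 1 of 3 tested was lower (172 to 186 against 389 to 566 CPM, with Lum at 0 in all 8 libraries), while 7 of 12 microglial markers were higher (13360 to 15300 against 5884 to 7517 CPM). Of the border macrophage markers 2 of 3 tested were higher (995 to 1179 against 218 to 296 CPM), and no granulocyte marker passed the filter. Cell cycle genes fell too, 22 of 35 tested with 0 higher (median -0.98), or 62.9% lower beside 15.4% of all genes. The 22 included Rrm2, a subunit of ribonucleotide reductase (-1.53, FDR = 2.69e-06), Ccnb1 (-1.41, FDR = 0.000383) and Cenpf (-1.35, FDR = 2.63e-06). The part of these cells and genes in the rise of Cdkn1a, Bax and Sesn1 was not tested, nor was their part in the fall of Psrc1, Ckap2, Eda2r and Ddit4l.

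Among the 27 regulators of p53 tested with tau fibrils, Daxx (log2 fold change 1.64, FDR = 3.65e-08) and Pml (1.01, FDR = 0.00242) rose and Trim24, a ubiquitin ligase, fell (-0.82, FDR = 0.00268). Thus 7.41% of the regulators were called higher and 3.7% lower, less often than the 14.5% and 15.4% of all genes. Of 41 further targets tested, 4 rose and 8 fell, or 9.76% and 19.5%, near the 14.5% and 15.4% of all genes. Mgmt, a DNA repair enzyme, rose from 11.9 ± 2.93 to 26.1 ± 10.1 CPM (1.10, FDR = 0.00293), while Igfbp3, an IGF-binding protein, fell by 0.98 (FDR = 0.000809).

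In adult microglia 30 of the 34 genes were tested and none was called in either direction between PS19 and NTG, where 0.0707% of all 11323 genes were called higher and 0% lower. DESeq2 and limma-voom called none either, and 1 of the 30 had an unadjusted p under 0.05, beside 977 of all 11323 genes. The log2 fold changes lay between -0.57 and 1.18 with a median of 0.23, and 20 of 30 were positive. The biological coefficient of variation was 30.5%, the largest of the 4 comparisons. Psrc1, Eda2r, Tnfrsf10b and Ddit4l did not pass the filter, with at most 7 counts in every library for Eda2r, Tnfrsf10b and Ddit4l.

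Cdkn1a was at 141, 102, 62.4 and 61.0 CPM in PS19 and at 53.7, 39.3, 67.1 and 70.6 CPM in NTG (log2 fold change 0.67 ± 0.29, FDR = 0.552). Mdm2 was at 157, 123, 72.6 and 66.5 CPM in PS19 and at 89.8, 84.0, 102 and 96.7 CPM in NTG (0.16 ± 0.26, FDR = 0.901). For both genes PS19 libraries 1 and 2 lay above all NTG libraries, and libraries 3 and 4 lay within or below them. Phlda3 was at 23.6, 5.59, 3.93 and 2.13 CPM in PS19 and at 4.53 to 7.53 CPM in NTG.

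PS19 library 1, whose Xist level but not its Ddx3y level went against its label, had the highest Cdkn1a, Mdm2, Phlda3, Zmat3 and Bax of the 8 libraries. Its summed level of cell cycle genes was 977 CPM, against 394 to 493 CPM in the other 7. Without it the median log2 fold change of the genes tested was 0.05, with 15 of 28 positive, and again none was called. Cdkn1a then had 0.38 ± 0.26, Zmat3 0.25 ± 0.30, Mdm2 -0.10 ± 0.23, Phlda3 -0.55 ± 0.46 and Bax -0.84 ± 0.29, so that Mdm2 and Phlda3 changed sign. Granulocyte markers ranged from 386 to 2380 CPM in PS19 and from 1488 to 2066 CPM in NTG, with 0 of 6 called, and their part in the spread of the p53 targets was not tested. None of 28 regulators, 39 further targets and 34 cell cycle genes tested was called in this comparison.

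**Figure D5:**
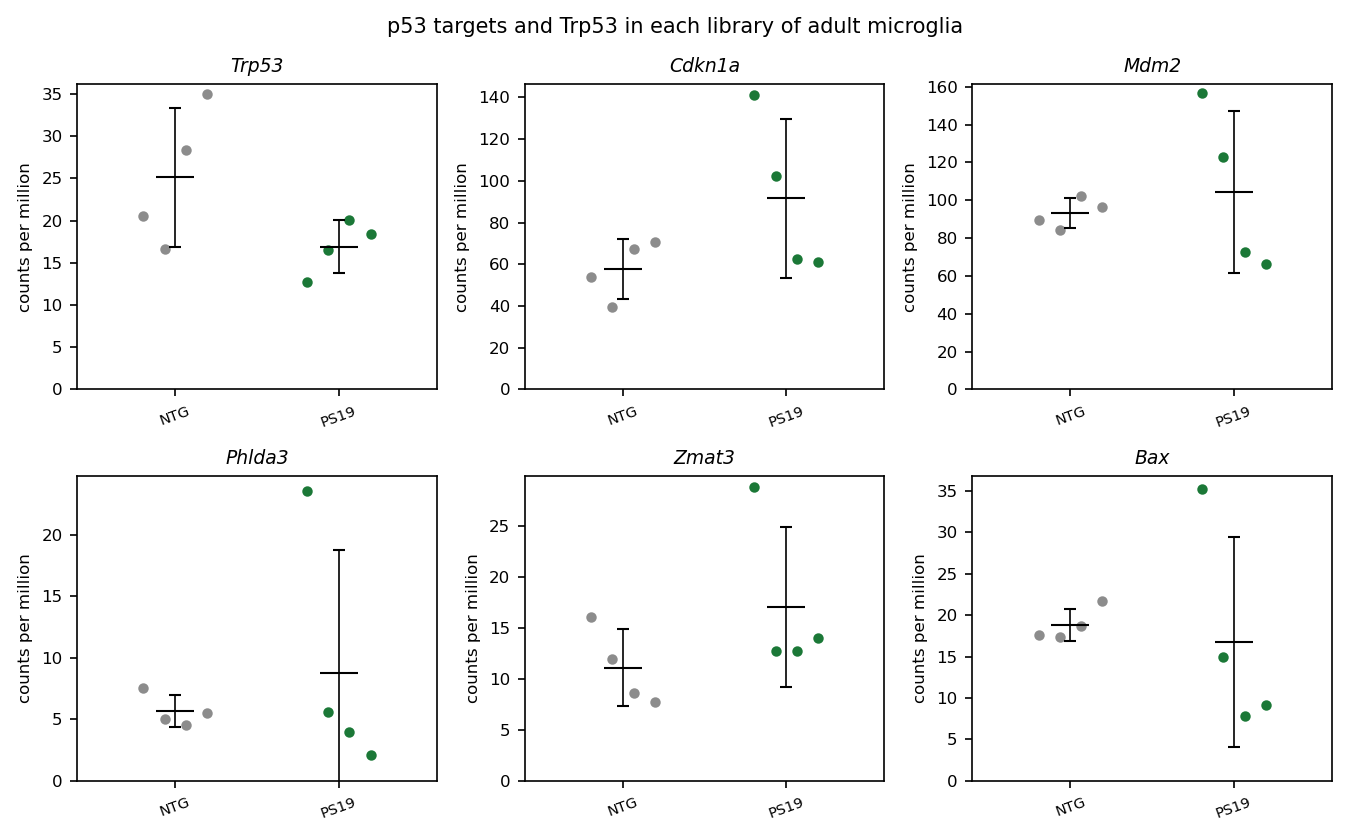
TMM-scaled CPM (y axis, from 0) of Trp53 and 5 p53 targets in each library of adult microglia from NTG and PS19 mice (x axis), ordered by library number. Points are libraries, horizontal lines are means and bars are SDs (n = 4). The leftmost PS19 point, library 1, is the highest for the 5 targets, at 141 for Cdkn1a and 23.6 for Phlda3.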

How the data were processed

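The data are 34 microglial libraries made with QuantSeq 3′ chemistry. Sample labels gave the condition of every library, and the study's methods the genotypes. Mapping by the authors used the QuantSeq pipeline of Lexogen with GRCm38 and GENCODE annotation, and they deposited 1 table of raw read counts per library, with 47643 Ensembl genes and 5 lines of reads not counted on genes, which were left out. RSEM is named in the methods but is not recognisable from the tables, and the strand setting was not given in the sources used here. Reads outside genes were 12.4% to 38.3% of uniquely mapped reads. GENCODE M21 held 47224 of the identifiers.

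Tests ran in R 4.3.3 with the packages edgeR 4.0.16 and limma 3.58.1, and DESeq2 1.42.0 served as an alternative. Each comparison was fitted on its own libraries with TMM scaling, filterByExpr (minimum count 10, minimum total 15) and a quasi-likelihood F test in edgeR, and p-values were adjusted by Benjamini-Hochberg over all genes tested. The difference between the Ikbkb genotypes was tested in 1 fit of 18 libraries. Standard errors were computed from the log2 fold change and its F statistic. The procedure was tested on simulated data. None of the 56 pairs of libraries within groups was identical. Precision rests on the counts and on 4 or 5 libraries per group.

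The 34 genes, the further lists and the tests were chosen with earlier results of these data known. Named with values were Trp53 and every gene of the set that was called in a comparison, with each library for Trp53, for genes called in both Ikbkb comparisons and for called genes with an absolute log2 fold change of at least 1, and up to 3 called genes with the largest change from each further list, except for a gene that is not reported here. Values of each library for other genes were added after they were seen. Alternatives were RLE size factors, total-count scaling, DESeq2, limma-voom, omission of the filter, a minimum of 10 counts in each library, age as a covariate in PS19, 1 fit of 18 libraries, and leaving out each library. Added after the data were seen were the CPM of Ddx3y and the sets of IkbkbCA and IkbkbWT libraries as covariates, libraries 1 and 2 alone, libraries 4 and 5 alone, and both libraries numbered 3 left out.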

Additional observations from a re-analysis of the deposited data

Results flagged for a closer look

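Libraries that stood apart from the rest of their group were sought by the gap to the nearest library relative to the group's range (Dixon's 95% limits) in 82 groups of values, where chance gives about 1 in 20, and 6 were found. Phlda3 was at 138 CPM in IkbkbWT library 3, against 54.3 to 63.4 CPM in the other 4. Mdm2 was at 359.5 CPM in IkbkbWT library 5, against 244 to 261 CPM. Gadd45a was at 41.6 CPM in IkbkbCA library 3, against 18.4 to 23.8 CPM, and at 20.2 CPM in IkbkbWT library 5, against 11.6 to 13.9 CPM. Psrc1 was at 13.1 CPM in IkbkbCA library 3, against 20.7 to 22.4 CPM. Trp53 was at 22.2 CPM in vehicle library 1, against 11.4 to 12.3 CPM. Without the library in question, the log2 fold change in IkbkbCA was 2.00 for Phlda3, 0.83 for Mdm2 and 1.58 for Psrc1, and for Gadd45a it was 0.62 without IkbkbCA library 3 and 1.00 without IkbkbWT library 5.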

How the results depend on the processing

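Under the other scalings, tests and filters, the number of p53 genes called higher was 10 to 12 in IkbkbCA and 12 to 15 in Ikbkb-/-, and the number called lower was 1 in IkbkbCA. In Ikbkb-/-, 1 was called lower with limma-voom and 3 without a filter, in place of 0. Leaving out each library gave 9 to 11 higher in IkbkbCA, 12 to 17 higher and 0 to 2 lower in Ikbkb-/-, 1 to 4 higher and 5 to 7 lower with tau fibrils, and 0 or 1 in either direction for the difference between the genotypes. In Ikbkb-/-, 12 were higher in 1 fit of 18 libraries, where Bax, Plk3 and Dcxr lost their calls. There were 7 when that fit also had the CPM of Ddx3y as a covariate, and the shares of all genes called in these fits were not computed. With IkbkbCA and IkbkbWT libraries 1 and 2 alone 16 were higher, in a fit that rests on the spread within that set of libraries. The cause of these changes was not tested. Trp53, which was never called, changed sign with tau fibrils under limma-voom (0.032) and without a filter (0.0027), and ranged from -0.15 to 0.24 when each library was left out, being positive without tau library 1 (0.06), tau library 3 (0.12) or vehicle library 1 (0.24). In Ikbkb-/- it ranged from -0.0593 to 0.2141, being negative without library 1 of Ikbkb+/+ (-0.04) or of Ikbkb-/- (-0.0593). No called gene changed sign under any of these alternatives. Genes with few counts did not pass the filter and give no answer at this depth. No paired analysis was possible because the labels give no replicate numbers to pair libraries by. In the data, IkbkbCA and IkbkbWT libraries of the same number deviated together (r = 0.317 to 0.593), but so did libraries 1 and 2 and libraries 4 and 5 across the groups (0.483 to 0.566), and the fit with these sets as a covariate called 13 higher and 1 lower.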
